A study of Mus musculus with 8 samples.

Results

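Cyp7a1, Baat, Amacr and Abca1 are genes of bile acid synthesis and cholesterol export, and they were followed here in the livers of 8 mice. They were taken by symbol from a table of read counts and make up 4 of its 55416 gene rows, with 1 row for each symbol. Poly-A RNA was sequenced as 1 library per biological replicate, 4 with the genotype Sost-/- and 4 with SostPB/-. All 8 mice were on the MCD diet, in its usual sense a diet short of methionine and choline that brings on steatohepatitis. Both genotypes carry the Sost null allele, so neither group is wild type, and no group on another diet was analysed here. The product of Sost is sclerostin, which cells secrete to hold back Wnt signals, and the series text names its overexpression and steatohepatitis as the question. Neither the meaning of PB nor the group that overexpresses Sost is stated, and age and sex are not in the labels used here. The comparison is therefore made by genotype name, as SostPB/- against Sost-/-.

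Hepatocytes turn cholesterol into bile acids through a chain of enzymes in the endoplasmic reticulum, mitochondria and peroxisomes. Cyp7a1 sets the pace of the classic route, and its transcription is held back by bile acids that return to the liver and follows feeding and the time of day. Amacr flips the configuration of the side chain so that peroxisomes can shorten it, and Baat then joins the finished acid to taurine or glycine. Abca1 is a transporter of the plasma membrane that hands cholesterol and phospholipid to apolipoprotein A-I, the beginning of a high-density lipoprotein, and the sterol-sensing LXR receptors drive its transcription.

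The libraries held 9578086 to 14932773 counts, with Sost-/- replicate 1 and SostPB/- replicate 2 the deepest. Totals did not differ between the genotypes beyond the spread (exact two-sided permutation test, p = 0.657; with 4 libraries in each group p cannot go below 0.0286). Mitochondrial rows took 51.9% ± 5.15 of counts in Sost-/- and 59.3% ± 3.92 in SostPB/- (SD, n = 4), a difference with p = 0.114 in the exact permutation test. Levels below are CPM, read counts brought to a common library size with TMM scaling. Over most of the table, genes that every cell uses are missing from their own rows, so named genes were read only in 3 stretches where they are present, with 1433 rows (called readable here). They run from 3831334 to 62426990 on chromosome 4, from 3498382 to 30896794 on chromosome 6 and from 8109273 to 35938246 on chromosome 15 (GRCm38). Of the ribosomal and proteasome protein rows, a family that served to find the stretches, 3 of 3 inside reached a mean of 100 counts and 21 of 190 outside (11.1%) did. All 11 olfactory receptor rows inside them, genes that a liver does not use, had a mean below 10 counts, while 86 of 1093 outside reached 10. Most such rows outside were thus also below 10, and 11 rows are too few to tell the stretches from the rest. Among readable liver markers Pon1, Pon3 and Agxt2 had means of 20538, 3959 and 2158 counts. The hepatocyte marker rows Ttr, Ahsg and Cyp2e1, at 0 in all libraries, lie outside the readable stretches.

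The surroundings of each gene were read next, because a shifted name would give a gene the level of its neighbour. Cyp7a1 (ENSMUSG00000028240, chromosome 4, 6265612 to 6275633, minus strand) had a mean of 6990 counts. Its row lies between Ubxn2b at 442 and the syntenin gene Sdcbp at 3637 counts. Baat (ENSMUSG00000039653, chromosome 4, 49489422 to 49506557, minus strand) had a mean of 4997 counts. It sits between its relative Acnat1, at 1149 counts, and Mrpl50, a protein of the mitochondrial ribosome, at 3042 counts.

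Amacr (ENSMUSG00000022244, chromosome 15, 10981756 to 10996626, plus strand) had a mean of 2604 counts and stood alone. The rows beside it, C1qtnf3 and the pigment cell gene Slc45a2, had 19.3 and 4.63 counts. Abca1 (ENSMUSG00000015243, chromosome 4, 53030787 to 53159895, minus strand) had the highest mean, 9023 counts. The next row below it, Nipsnap3b, had 3246 counts. Further below lie 4 olfactory receptor rows within 1 Mb, each at 0, and above it the choline transporter Slc44a1 at 1887 counts. Olfactory receptor rows are mostly low outside the readable stretches too, so these 4 do not settle the name of Abca1. The widely used genes Rad23b, Txn1 and Ptbp3, 2.32, 4.91 and 6.44 Mb further on, had 13820, 4102 and 10371 counts; these were picked after their values were seen. Abca1 still lies past the last ribosomal anchor of that stretch, Mrpl50, so its name is less certain than those of the other members. No 50-base run in the transcripts of the 4 genes (GENCODE M21) occurs in a transcript of another gene, and no other row overlaps their spans in that annotation.

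**Figure D1:**
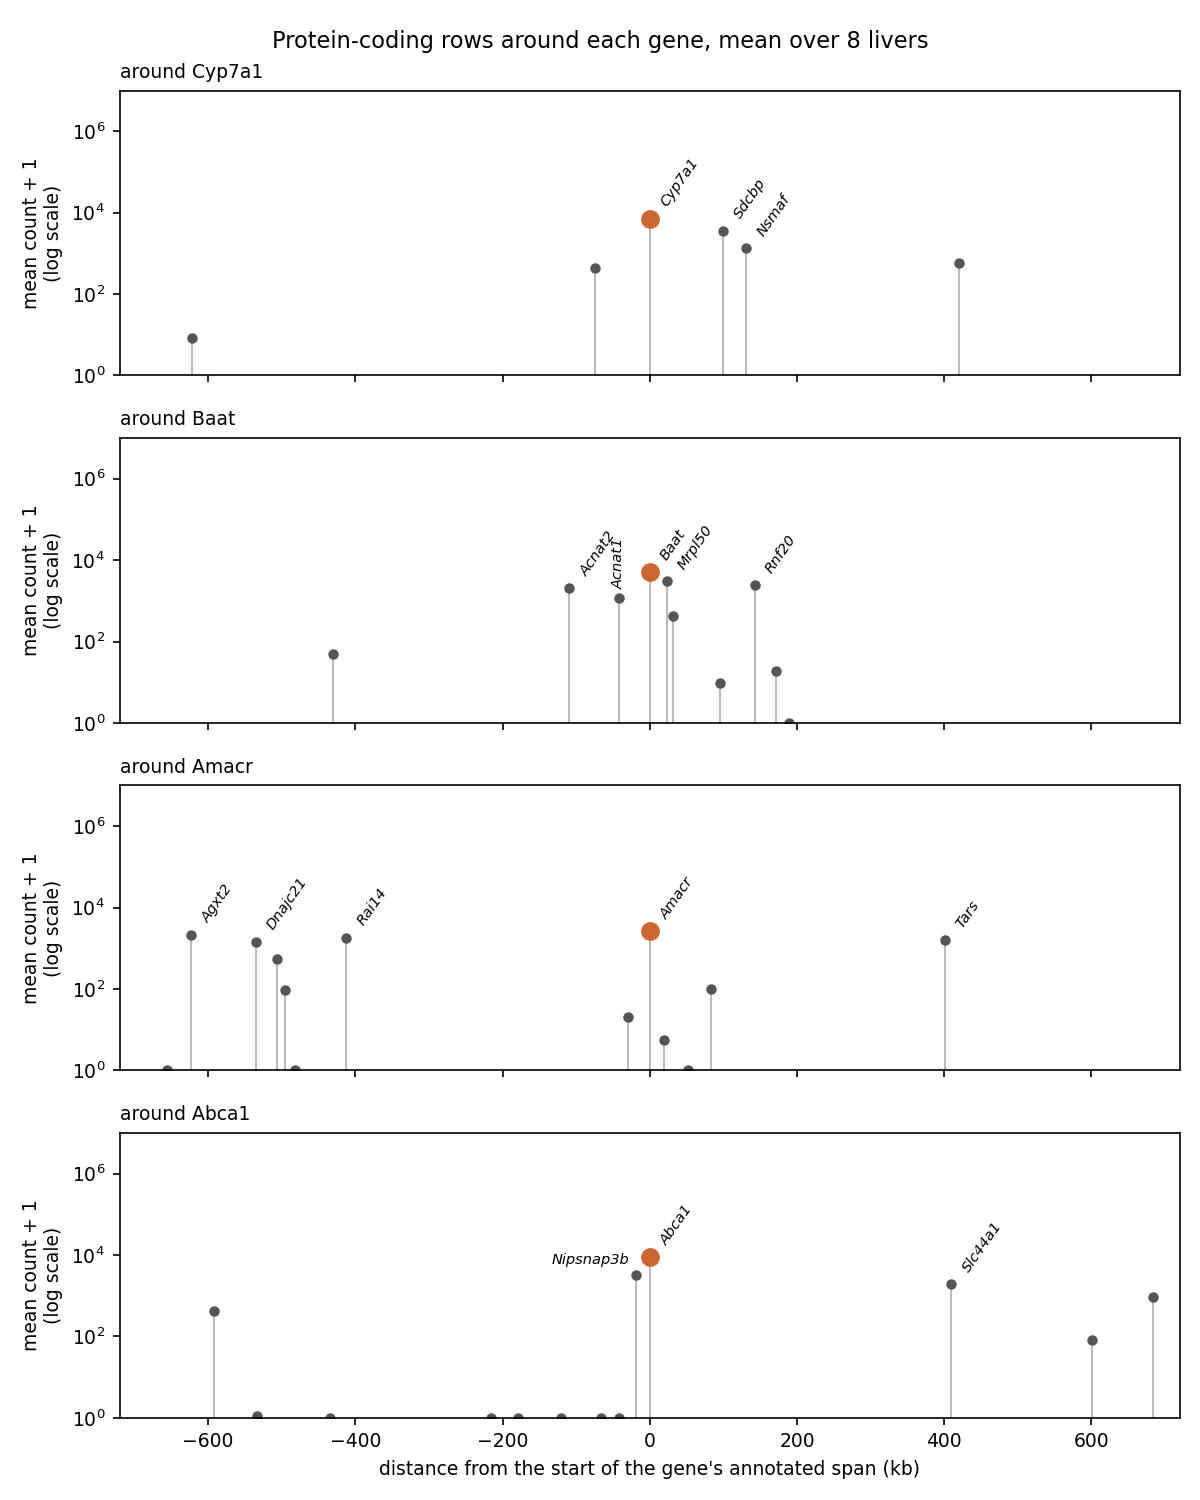
Mean count plus 1 over 8 livers (vertical log axis) for the reported protein-coding rows within 700 kb of the gene named above each panel, by distance in kb from the start of its annotated span. The orange point is the gene itself, and rows whose mean count reached 1000 are named. Amacr, at 2604 counts, stands between rows of under 20 counts, and Abca1, at 9023, and its neighbour Nipsnap3b, at 3246, follow a run of rows at 0.

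Cyp7a1 differed far more between mice of a genotype than between the genotypes. In Sost-/- replicates 1 to 4 it had 323, 549, 584 and 968 CPM. In SostPB/- replicates 1 to 4 it had 343, 405, 789.8 and 1158 CPM. The level rose with the replicate number in both genotypes, and the labels do not say whether the number pairs mice. The groups overlapped over nearly their whole range, and each held mice at both ends of it. The highest mouse stood 3.00 times above the lowest in Sost-/- and 3.38 times in SostPB/-. Group means stood at 606 ± 268 and 674 ± 378 CPM (SD, n = 4), for a log2 fold change of 0.15 and a standard error (SE) of 0.41 (edgeR quasi-likelihood test, adjusted p = 0.986). The 95% interval of the difference ran from -0.75 to 1.06 on the log2 scale, so it covers levels in SostPB/- from 0.593 to 2.09 times those in Sost-/-. Without SostPB/- replicate 4, the highest library, the log2 fold change was -0.24, and without Sost-/- replicate 4 it was 0.48. In bulk liver, fewer cells of a type and less RNA per cell cannot be told apart.

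Amacr was the steadiest of the 4. It had 269.7, 208, 214 and 243 CPM in Sost-/- replicates 1 to 4, and 256, 228, 201 and 219 CPM in SostPB/- replicates 1 to 4. Every SostPB/- value but the lowest, 201 CPM in replicate 3, lay inside the range of Sost-/-. Means of 234 ± 28.2 and 226 ± 22.8 CPM (SD, n = 4) gave a log2 fold change of -0.05 (SE 0.15, edgeR adjusted p = 0.986). Here the 95% interval was narrow, from -0.37 to 0.28, which is 0.773 to 1.21 times the Sost-/- level. A change of Amacr by 1.5 times in either direction lies outside that interval, which holds under TMM scaling. With library totals as the scaling the log2 fold change was -0.22 (SE 0.18), for which no interval was computed.

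Baat gave values of 397, 450.4, 394 and 569 CPM in Sost-/- and of 383, 405, 492 and 481.5 CPM in SostPB/- replicates 1 to 4. The highest mouse was Sost-/- replicate 4 and the lowest SostPB/- replicate 1, and the others of both genotypes were mixed between them. Mean levels were 452 ± 82.2 and 440.5 ± 54.5 CPM (SD, n = 4), and SostPB/- over Sost-/- gave a log2 value of -0.04 (SE 0.17, edgeR adjusted p = 0.991). Its 95% interval was -0.41 to 0.33, or 0.755 to 1.26 times the Sost-/- level.

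Abca1 had 774, 938, 478 and 1026 CPM in Sost-/- replicates 1 to 4 and 755, 737.5, 935 and 815 CPM in SostPB/- replicates 1 to 4. The SostPB/- mice all fell inside the range of Sost-/-, whose replicate 3 was the lowest of the 8 livers. On average it had 804 ± 241 and 811 ± 89.3 CPM (SD, n = 4), which is a log2 fold change of 0.01 (SE 0.22, edgeR adjusted p = 0.998). The 95% interval was -0.48 to 0.50, or 0.719 to 1.41 times. Without Sost-/- replicate 3 the log2 fold change was -0.17 (edgeR adjusted p = 0.999).

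**Figure D2:**
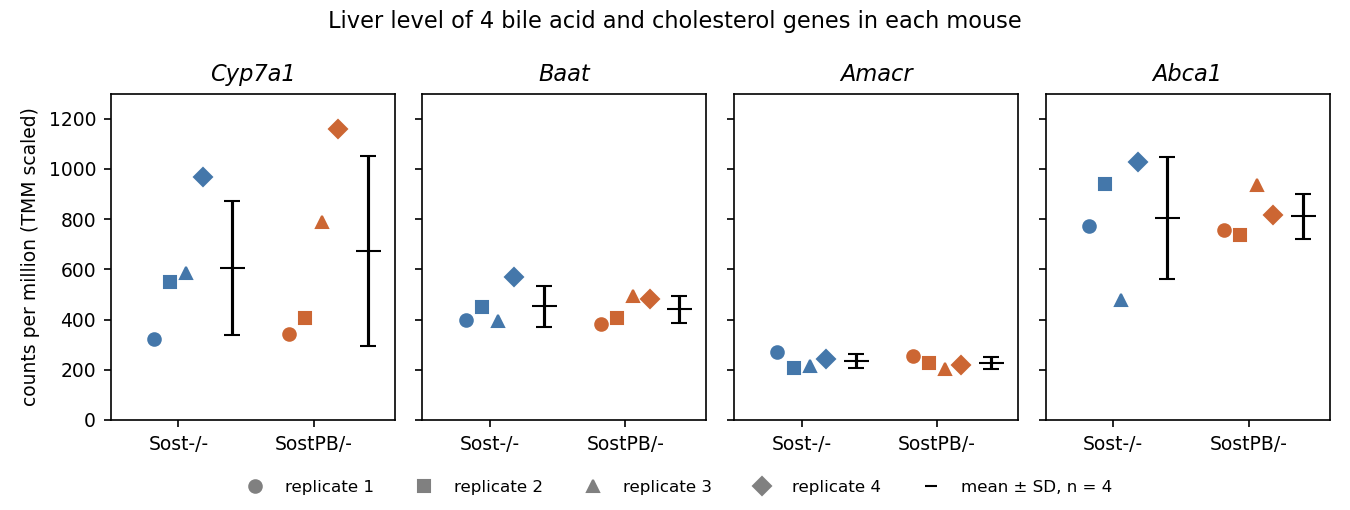
Level of each gene in each mouse, in TMM-scaled CPM (vertical axis from 0), for Sost-/- (blue) and SostPB/- (orange), with the mean and SD of 4 mice as black bars. Marker shapes give the replicate number, which was not taken to pair the mice. Cyp7a1 runs from 323 to 968 CPM in Sost-/- and from 343 to 1158 CPM in SostPB/-, while Amacr stays between 201 and 269.7 CPM.

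None of the 4 members passed the test, and this has to be read against the table as a whole. At an adjusted p of 0.05 edgeR called 0 of 10020 rows tested, 0%, and at an unadjusted p under 0.05 it listed 646 rows, 6.45%, with no member among them. DESeq2 called 53 of 12666 rows (0.418%) and limma-voom with sample weights 1 of 10020 (0.00998%), again with no member. Among the 460 readable nuclear rows tested, edgeR called 0, 0%, and 38, or 8.26%, had such an unadjusted p. In 393 of the 10020 rows, 3.92%, and in 19 of the 460, 4.13%, the groups did not overlap, and in all 4 members they did. The median size of the log2 fold change was 0.04 over the members, beside 0.14 over 332 readable protein-coding rows whose mean count reached 50. The replicates are labelled as biological, and p-values measure the spread between them.

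The promoter of Abca1 is shown because it holds the sterol-response region through which LXR receptors act on the only cholesterol exporter that could be read. It is the stretch before the RefSeq transcription start at chr4:53159896-53160145 (GRCm38.p6, minus strand), 250 bases written 5′ to 3′ and ending just before the start. Capitals mark the closest match to a direct repeat of AGGTCA with a spacer of 4 bases (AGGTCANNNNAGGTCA), the form LXR receptors bind.
Abca1 promoter: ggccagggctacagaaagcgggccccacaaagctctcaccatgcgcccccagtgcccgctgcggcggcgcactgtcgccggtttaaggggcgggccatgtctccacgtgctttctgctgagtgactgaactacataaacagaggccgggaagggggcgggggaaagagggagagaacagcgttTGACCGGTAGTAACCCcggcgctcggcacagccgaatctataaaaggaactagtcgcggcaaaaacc
The match lies 67 to 52 bases before the start, on the strand opposite to the gene, where it reads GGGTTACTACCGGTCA, with 3 mismatches over its 12 fixed letters. Searched on both strands, 21.9% of 32851 promoter windows of 300 bases held a match with 3 mismatches or fewer, so the letters alone are common. A TATAAA run begins 29 bases before the start, and 8.32% of the windows hold TATAAA on the gene's strand. In the livers the gene behind this promoter stayed within 478 to 1026 CPM, and within 737.5 to 935 CPM in SostPB/-.

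Levels can be set side by side between genes only per length. Divided by the bases of annotated exon (4174 for Cyp7a1, 1941 for Baat, 2606 for Amacr and 10363 for Abca1), Baat was the most abundant, at 233 ± 42.3 CPM per kb in Sost-/- and 227 ± 28.1 in SostPB/- (SD, n = 4). Cyp7a1 followed with 145 ± 64.1 and 161 ± 90.7 CPM per kb. Next came Amacr, at 89.7 ± 10.8 and 86.8 ± 8.76, and Abca1, at 77.6 ± 23.3 and 78.2 ± 8.62 CPM per kb. Abca1 was above Amacr in 3 of 8 livers, and the difference between these genes was not tested. Baat was the highest of the 4 in 7 of 8 livers, and in the remaining liver, SostPB/- replicate 4, Cyp7a1 was above it with 277 against 248 CPM per kb. Amacr was above Cyp7a1 in 2 of 8 livers, replicate 1 of each genotype, so the order of these neighbours is not the same in every mouse. The exon lengths come from GENCODE M21, which is not the version of the gene models that the table names: of the rows matched, 99.9% carry a gene ID version above that in M21, the 4 members among them. Positions and lengths given here are therefore those of M21, and the exons over which reads were counted may differ.

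The spread between mice set Cyp7a1 apart from the others by size. Around the genotype means its SD was 0.74 on the log2 scale, and Abca1 had 0.36, Baat 0.22 and Amacr 0.16. Among 56 readable protein-coding rows within 2-fold of the mean count of Cyp7a1, 2 had a larger SD, and their median was 0.24. For Abca1 the count was 6 of 41, for Baat 46 of 75 and for Amacr 89 of 110. The spread of Abca1 rested on Sost-/- replicate 3, without which it was 0.18. Cyp7a1 kept an SD of 0.64 to 0.81 when any 1 library was left out. The lowest count of each gene in a library was 1731 to 5650, which gives a relative counting error of 1.33% to 2.40%; the spread from library preparation was not tested.

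Mice with more Cyp7a1 tended to have more Baat, though the order of the livers was not the same for both genes. Over the 8 livers the log2 levels had Pearson's r = 0.838 (exact permutation p = 0.0110, adjusted over 6 pairs p = 0.0658) and Spearman's rho = 0.738 (exact permutation p = 0.0458, adjusted p = 0.138). This did not pass after adjustment, and r was 0.895 without Sost-/- replicate 1 and SostPB/- replicate 4, the livers farthest from the median of Cyp7a1. With the genotype means taken out it was 0.848. Baat and Abca1 had r = 0.71 (exact permutation p = 0.0415, adjusted p = 0.125) and rho = 0.81 (exact permutation p = 0.0218, adjusted p = 0.131), and r = 0.522 without the 2 farthest livers. Amacr and Cyp7a1 had r = -0.553, which did not pass the test (exact permutation p = 0.157, adjusted p = 0.313; rho = -0.524, exact permutation p = 0.197, adjusted p = 0.393). Without the 2 farthest livers that r was -0.36. The other pairs had an r of -0.304 (Baat and Amacr), 0.325 (Cyp7a1 and Abca1) and 0.004 (Amacr and Abca1), with rho of -0.381, 0.452 and -0.19 (exact permutation p = 0.458, 0.464 and 0.994 for r, and 0.36, 0.268 and 0.665 for rho). The levels of a pair come from the same libraries and share their scaling.

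The readable rows whose levels ran most like each member over the 8 livers were then listed, among 331 protein-coding rows whose mean count reached 50. Abca1 was matched most closely by Ptpn3, a protein tyrosine phosphatase, with r = 0.981 and the same order of all 8 livers (rho = 1.0). Ptpn3 lies 4.16 Mb from Abca1 on chromosome 4. It had 184, 227, 121 and 254 CPM in Sost-/- replicates 1 to 4 and 180.5, 176, 203 and 185 CPM in SostPB/- replicates 1 to 4, so Sost-/- replicate 3 was the lowest liver for both genes. Without the 2 livers farthest from the median of Abca1, Sost-/- replicates 3 and 4, r was 0.922. Epb41l4b, a band 4.1 family protein 3.96 Mb from Abca1, had r = 0.900, and the glycosidase gene Myorg r = 0.897.

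**Figure D3:**
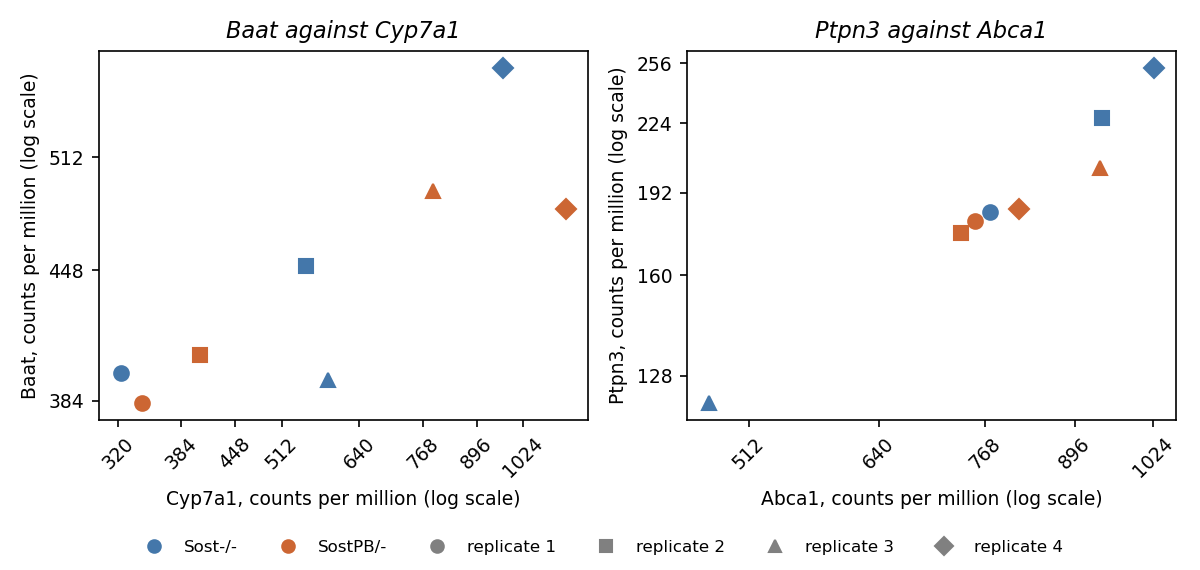
Levels in CPM on log axes, 1 point per mouse, of Baat against Cyp7a1 (left) and of Ptpn3 against Abca1 (right), colored by genotype with the replicate number as the shape. Both genotypes are mixed along each relation, and Sost-/- replicate 3 is the low point on the right, at 478 CPM of Abca1 and 121 CPM of Ptpn3.

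Cyp7a1 and Baat shared their closest row, Tmem38b, an ion channel of the endoplasmic reticulum, at r = 0.889 and 0.896. Next for Cyp7a1 came Vcp, the ATPase that draws proteins out of membranes (r = 0.879), and Rbm28, of ribosome assembly (r = 0.876). For Baat they were Ecpas, which binds the proteasome (r = 0.891), and Snd1, an RNA-binding nuclease (r = 0.880). Amacr had weaker matches in Hsdl2, a peroxisomal enzyme (r = 0.799), Atpsckmt (r = 0.793) and Decr1, of fatty acid oxidation (r = 0.778). Without Sost-/- replicate 1 and SostPB/- replicate 1, r with Decr1 was 0.104 and with Atpsckmt 0.437, so those relations rest on these libraries. An r of this size is common here, since the best match of a row had a median r of 0.902 over the 332 rows, and 2 of them had a closer best match than Abca1. Tmem38b, Ecpas, Hsdl2, Ptpn3 and Epb41l4b lie past Mrpl50 on chromosome 4, further from it than Abca1, and their names carry the same doubt. These values describe 8 points that share libraries and depth.

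Of the wider pathway only the relatives of Baat could be read by name. Acnat1 and Acnat2 belong to the same family of acyl-CoA N-acyltransferases and lie beside Baat on chromosome 4. Acnat1 had 90.0, 94.5, 72.3 and 89.1 CPM in Sost-/- replicates 1 to 4 and 76.4, 151, 147 and 97.3 CPM in SostPB/- replicates 1 to 4. SostPB/- replicates 2 and 3 were above all other livers, and the groups overlapped. Its log2 fold change was 0.45 (SE 0.22, 95% interval -0.05 to 0.94, edgeR adjusted p = 0.815, unadjusted p = 0.0725). Acnat2 stood at 201 ± 58.4 CPM in the Sost-/- livers and at 165 ± 26.2 in the SostPB/- livers (SD, n = 4), with overlapping groups, and a log2 fold change of -0.28 (SE 0.22, 95% interval -0.78 to 0.21, edgeR adjusted p = 0.945). Of the 50-base runs in their transcripts, 24.0% for Acnat1 and 30.0% for Acnat2 also occur in the other, so the division of reads between them is uncertain, while Baat shares none.

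**Figure D4:**
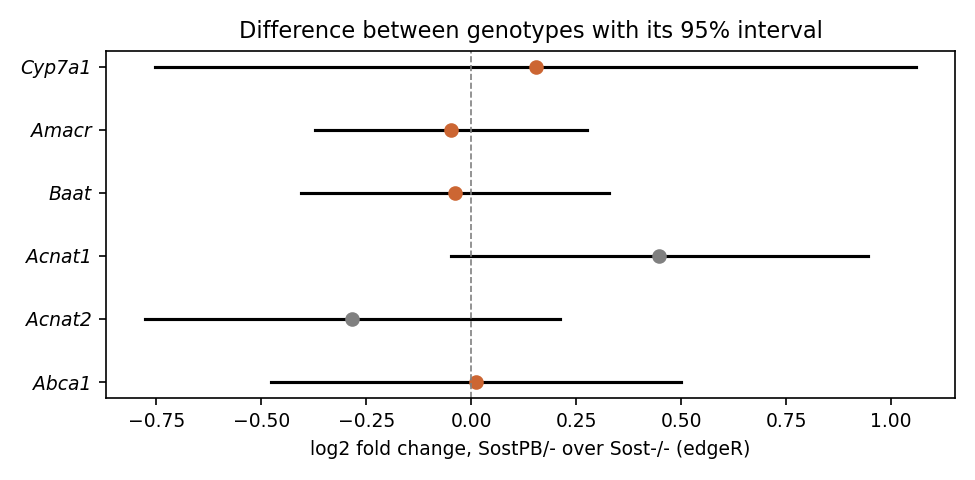
Log2 fold change of SostPB/- over Sost-/- by edgeR (points) with its 95% interval (lines) for the 4 members (orange) and the relatives of Baat (grey), from 4 mice per genotype. Every interval crosses 0, and that of Cyp7a1, from -0.75 to 1.06, is the widest of the 6.

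Lists of 82 genes for bile acid synthesis, bile acid transport and control, cholesterol export, and cholesterol synthesis and uptake all had a row in the table. Only 6 of these rows are readable, the 4 members with Acnat1 and Acnat2, and 25 were at 0 in all 8 libraries. Among those at 0 were rows named for the nuclear receptors Nr1h4 and Nr0b2 and the enzymes Cyp27a1 and Hsd3b7, which do not show those genes to be silent. Of the 82 rows edgeR and limma-voom tested 39 and DESeq2 57, and 0 passed in either direction with any of these tools. In edgeR 3 of the 39 had an unadjusted p under 0.05, a share near the 6.45% over all rows, so that count is no result about the pathway. By list, edgeR tested 11 of 21 rows of bile acid synthesis, 12 of 22 of transport and control, 9 of 18 of cholesterol export and 7 of 21 of cholesterol synthesis and uptake. The 3 rows, named Akr1c6, Lcat and Mvd, lie outside the readable stretches, so their values are not given as levels of those genes.

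Other liver cell types could be followed only in part. Col1a2, a collagen gene of stellate cells and fibroblasts, averaged 108 ± 33.4 CPM in Sost-/- livers and 127 ± 25.6 in SostPB/- livers (SD, n = 4), with a log2 fold change of 0.23 and an edgeR adjusted p of 0.962. Cftr, of bile duct cells, had a mean of 10.6 counts, and the lymphocyte genes Cd72, Pax5 and Sit1 had 107, 16.5 and 1.38. Ccl21a, a chemokine gene placed in the same marker list, had 7.5 counts and is not read as a lymphocyte level. None of the 9 macrophage rows is readable, so the share of Abca1 RNA that came from macrophages was not tested.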

How the data were processed

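Liver RNA of 8 mice was extracted with RNAiso Plus and poly-A captured, per the labels' protocols. HISAT2, StringTie, DESeq2 and mm10 are named in the submitters' processing notes without version; no source used here gives the annotation, strand setting or read length. The authors deposited whole-number counts per gene row, which all tests used, and a second table of normalized signal: counts divided by 1 size factor per library (0.782 to 1.24). After multiplication 100% of its values were whole within 0.01, and edgeR on the recovered reads called 0 rows.

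Groups come from the titles. Rows were placed by gene ID in GENCODE M21 (GRCm38), and 52135 of 55416 matched with versions ignored; 99.9% of these carry a later version than in M21. The readable stretches were taken from an earlier examination of these data. The members, lists and the rule for named genes (members, their neighbours, closest rows, list genes in readable stretches) were chosen with earlier results of these data known.

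edgeR 4.0.16 in R 4.3.3 was run with filterByExpr, TMM, glmQLFit and glmQLFTest over all rows, with Benjamini-Hochberg adjustment at 0.05. The standard error is the log2 fold change over the square root of F, and intervals use the fit's degrees of freedom. Correlations used log2(CPM + 1) and exact permutations. DESeq2 1.42.0, limma 3.58.1, other scalings, filters and row sets, a replicate block and the omission of single libraries served as alternatives. On simulated counts with 9535 rows tested, edgeR recovered 16.0% of changes planted at 2-fold and 62.4% of those at 4-fold, and it called 2 of 9348 unchanged rows. The changes were planted in rows drawn at random at all levels, so these shares are not those for the 4 members. Only Abca1 was found in the RefSeq promoter table (1 of 4 members). One further row in the readable stretches is not reported here.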

Additional observations from a re-analysis of the deposited data

Results flagged for a closer look

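Livers within each genotype were compared for the 4 members, Acnat1, Acnat2, total counts and mitochondrial share, 16 sets of 4 values. In 2 sets a library stood far from the rest, by a rule meant to flag about 1 set in 20 by chance. That rate was not checked on these data. Both sets were totals, and the gap to the nearest library was 0.873 of the range in Sost-/- and 0.834 in SostPB/-. Sost-/- replicate 1 had 14932773 counts, against 9919069 to 10554376 in the other Sost-/- libraries. SostPB/- replicate 2 had 14613316 counts, against 9578086 to 10412498 in its group. No level of Cyp7a1, Baat, Amacr or Abca1 stood out in this way, since the 4 values of each were more evenly spaced. Without Sost-/- replicate 1 the log2 fold change of Cyp7a1 was -0.05 in place of 0.15, and without SostPB/- replicate 2 it was 0.33 (edgeR adjusted p = 0.994 and 0.971).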

How the results depend on the processing

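No member passed under any of 18 alternatives per gene, and the lowest adjusted p was 0.907 for Cyp7a1, 0.765 for Baat, 0.768 for Amacr and 0.853 for Abca1. Among these alternatives, the reads recovered from the normalized signal are the same counts. They gave the values of the main fit for each member and could not differ from it. The signs of the members are not settled. Leaving out 1 library at a time gave a log2 fold change of -0.24 to 0.48 for Cyp7a1, -0.0982 to 0.0943 for Baat, -0.1125 to 0.0288 for Amacr and -0.17 to 0.15 for Abca1. With library totals as the scaling the median of all rows moved by -0.20. Cyp7a1 was then at -0.10, Baat at -0.26, Amacr at -0.22 and Abca1 at -0.20. Relative to the median of all rows they were at 0.10, -0.05, -0.02 and 0.01, in that order. Abca1 was also negative without a filter on low counts (-0.0047), with limma-voom (-0.0136) and on readable and mitochondrial rows alone (-0.0029). The count of all rows called, 0 in edgeR, was 53 with DESeq2, 1 with limma-voom, 2 without a filter, and 0 to 4 when 1 library was left out, most without Sost-/- replicate 1; the cause was not tested. Rows of the pathway lists called stayed at 0 under all alternatives.

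Same-numbered mice did not deviate together over all rows (r = -0.0382, -0.0129, -0.0338 and 0.0405 for replicates 1 to 4), so the number was not taken to pair them. An r over all rows cannot settle this for a single gene, and Cyp7a1 rose with the replicate number in both genotypes. With the replicate block 0 rows were called, and Cyp7a1 had a log2 fold change of 0.09 with an SE of 0.19 in place of 0.41. The members had at least 1731 counts per library; an effect of depth beyond counting error was not tested.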
